A study of Mus musculus with 24 samples.

Results

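The comparison described here sets splenic NK cells of mice that had carried RMA-KR lymphoma cells for 2 days against NK cells of tumor-free mice. Its members were chosen by their labels and are 7 of the 24 RNA-seq libraries of the series, namely 3 of RMA-KR at the early stage and 4 of the control group. All mice were wild-type C57BL/6J, and per the study's methods they were females of 7 to 9 weeks unless stated otherwise; control mice were not treated. RMA is a mouse T cell lymphoma line. RMA-KR was made from it by knocking out B2m with CRISPR-Cas9, which takes MHC-I off the cell surface, and by adding Rae1-β, a ligand of the activating receptor NKG2D, with a lentivirus that also encodes the fluorescent protein ZsGreen; the study describes ZsGreen in its RMA cells too. RMA-KR was cloned by limiting dilution, so it stands for 1 clone. Tumor cells were injected intravenously, and live cells that carried NKp46 or NK1.1 and lacked CD3, CD5 and T cell receptors, among other lineage markers, were sorted from the spleen. For reference, values are also given for 3 libraries of mice bearing RMA for 2 days and 5 libraries of mice bearing RMA-KR for 7 days. The labels do not state whether a library comes from 1 mouse or from several, so every p-value measures the spread between these libraries. For its RNA-seq panels of control and late-stage NK cells, the study's figure legend gives 3 mice per group.

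NK cells are innate lymphocytes that weigh signals from activating and inhibitory receptors. Inhibitory receptors that bind MHC-I hold them back from healthy cells, so a target without MHC-I lacks that brake, and NKG2D ligands add an activating signal. Engaged NK cells release granules that hold perforin and granzymes, secrete IFN-γ and chemokines such as CCL3 and CCL5, and can divide. The question of the comparison is what differs in the NK cell transcriptome early after meeting a tumor that they are equipped to recognize.

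The comparison called few genes, and the calls depend on single libraries and on the tool. With edgeR across all 24 libraries, 14 of 17097 tested genes (0.0819%) were called, which takes an adjusted p below 0.05 together with more than a 2-fold difference, and all 14 fell. Without control library 1, 2 or 3 edgeR called 0 (1237, 1240 and 1304 genes at an unadjusted p under 0.05). Without control library 4 or RMA-KR day 2 library 2 it called 1 (in the latter case none of the 14). Without RMA-KR day 2 library 3 it called 9, with 2 of the 14 among them. DESeq2 with all libraries called 148, of which 21 were higher. The 14 genes include the TNF receptor gene Tnfrsf1a, the kinase gene Rps6ka4, the stress response regulator Atf4, the actin-binding protein gene Lasp1, the ribosomal protein gene Rpl8 and the granzyme gene Gzmc. Around Rpl8, 71 of 79 cytosolic ribosomal protein genes had a lower mean in RMA-KR day 2 NK cells (median log2 fold change -0.65), against 8474 of 17097 tested genes (median 0.00). That list was drawn up after the value of Rpl8, one of its members, was seen. In the other direction, 36 of 40 genes of the G2 and M phases had a higher mean (median 0.77), against 8582 of 17097 tested genes. Of the 40, edgeR called 0, with 9 higher at an unadjusted p under 0.05 (22.5%, against 3.00% of all tested genes), and DESeq2 called 1, against 0.866% of all tested genes. The 9 became 14, 5 and 3 without control libraries 1, 2 and 4, and 17 and 4 without RMA-KR day 2 libraries 1 and 2. In the sum of these genes, RMA-KR day 2 library 1 lay within the control range, and the T cell marker sums were above control in the same libraries 2 and 3. In RMA day 2, library 1 was below and library 2 above control in both sums. RMA day 2 library 3 was above control in the G2 and M phase sum and below it in the T cell marker sum. The sort excluded cells stained for T cell receptors, and whether lymphoma transcripts had a part was not tested. Beside the lower ribosomal protein levels, all RMA-KR day 2 libraries had more undetected expressed genes than every control library. Their macrophage and platelet marker sums were also above every control library, though edgeR and DESeq2 called none of these markers. The part of these signs in the ribosomal protein values was not tested.

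The libraries held from 5138651 to 10562991 counts in the control group and from 10451413 to 12900199 in RMA-KR day 2. Levels are given as normalized CPM, the count of a gene relative to the total of its library after scaling with TMM factors. The count of 3 that a zero allows was at most 0.554 normalized CPM in the 7 libraries; such floors and intervals cover counting error only. Per gene, the mean of the members of a group was compared on the log2 scale. In these bulk samples, fewer cells that express a gene and less RNA of that gene per cell cannot be told apart.

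The label NK cell was checked against 13 NK cell markers, all of which had counts in both groups. Their summed level was 26847, 34779, 37798 and 27281 normalized CPM in control libraries 1 to 4, and 30171, 31564 and 32961 in RMA-KR day 2 libraries 1 to 3. The groups overlapped, and Gzma was the most abundant marker. Ncr1, which encodes NKp46, stood at 2951, 3641, 3679 and 3086 normalized CPM in control and 3066, 3285 and 3254 in RMA-KR day 2. None of the 13 markers was called by edgeR; 1 was lower (7.69%, against 5.71% of all tested genes) and 0 were higher (3.00% of all tested genes) at an unadjusted p under 0.05, and DESeq2 called 0, with 1 lower and 1 higher at that unadjusted level.

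Markers of other cells were low, and some moved with the groups. Of 14 T cell markers, which the lymphoma could also carry, 11 had counts in RMA-KR day 2, with Cd3e, Cd8a and Cd8b1 at 0; the sum was 474, 410.5, 465 and 491 normalized CPM in control and 439, 684 and 684 in RMA-KR day 2, most of it from Trbc1. RMA-KR day 2 library 1 lay within the control range and libraries 2 and 3 above it. The 4 platelet markers summed to 1.29, 2.70, 1.79 and 1.96 normalized CPM in control and 13.5, 17.5 and 16.3 in RMA-KR day 2, and to 7.87, 30.4 and 19.4 in RMA day 2. Both tumor groups lay above every control library. Different markers carried the sum: Itga2b was at 0.742, 17.5 and 9.74 normalized CPM and Ppbp at 11.1, 0 and 3.14 in RMA-KR day 2 libraries 1 to 3. Of 10 macrophage markers, 8 had counts in RMA-KR day 2, with C1qa and C1qc at 0; the sum was 21.6, 20.5, 10.01 and 17.8 normalized CPM in control and 27.8, 35.9 and 36.1 in RMA-KR day 2, with Cd68 the most abundant. All 3 RMA-KR day 2 libraries were above all 4 control libraries in this sum too. Cd68 itself was at 15.9, 11.3, 8.74 and 8.66 normalized CPM in control and 5.47, 27.4 and 21.5 in RMA-KR day 2. Unlike the sum, its value in RMA-KR day 2 library 1 was below every control library. Of 11 T cell, 4 platelet and 5 macrophage markers tested, edgeR called 0 (0.0819% of all tested genes) and DESeq2 called 0 (0.866%). At an unadjusted p under 0.05, edgeR had 1 T cell (9.09%), 1 platelet (25%) and 0 macrophage markers higher, against 3.00% of all tested genes. On the lower side it had 1 T cell marker (9.09%, against 5.71% of all tested genes). The part of these cells in the results was not tested.

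The 8 B cell markers summed to 7.39, 4.24, 6.53 and 42.9 normalized CPM in control and 15.8, 12.6 and 6.20 in RMA-KR day 2; Cd74 was the most abundant, and control library 4 stood above the rest. The 6 plasma cell markers summed to 434, 536, 483 and 639 normalized CPM in control and 571, 661 and 586 in RMA-KR day 2, with Ighm the most abundant on average and Xbp1 at 269 in RMA-KR day 2 library 1, and with Mzb1 at 0 in RMA-KR day 2. Igkc, an antibody light chain gene, was at 59.1 normalized CPM in RMA-KR day 2 library 1 and at most at 2.80 in the other 6 libraries. Sums of granulocyte markers reached at most 5.10 normalized CPM and sums of red blood cell markers at most 2.96 in the 7 libraries. The part of B and plasma cells in the results was not tested.

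Some libraries stood apart in ways that the groups do not explain. The 36 immediate early genes, transcribed within minutes of stimulation of a cell, summed to 18128, 17022, 21797 and 4442 normalized CPM in control libraries 1 to 4 and to 21822, 16906 and 17705 in RMA-KR day 2. Control library 4 was far below the other 6. In RMA-KR day 7, libraries 1 and 2 had 22882 and 21466 normalized CPM and libraries 3, 4 and 5 had 4025, 4357 and 4348, so 4 of the 24 libraries were low. In a fit without these 4 libraries, chosen after the data were seen, 2 genes were called in RMA-KR day 2 against control, Rpl8 (log2 fold change -1.56, adjusted p = 0.000536) and Rack1 (log2 fold change -1.44, adjusted p = 0.000713).

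Libraries also differed in how many expressed genes went undetected. Of 9472 genes with a mean of at least 5 normalized CPM, 13, 30, 22 and 11 had 0 counts in control libraries 1 to 4, and 86, 86 and 74 in RMA-KR day 2 libraries 1 to 3. The RMA-KR day 2 libraries had more such genes than every control library. Library 1 of RMA-KR day 2 had fewer total counts (10451413) than control libraries 2 and 4, and libraries 2 and 3 had more than all control libraries. RMA day 2 libraries 1 and 2 had 264 and 425, and RMA-KR day 14 library 3 had 274. Without these last 3 libraries, a setting also chosen after the data were seen, edgeR called 17 genes in RMA-KR day 2 against control, 13 of the 14 among them. In RMA-KR day 2, 2 expressed genes were at 0 in all 3 libraries, Tspan31 and Havcr2; the control group had 0 such genes.

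**Figure D1:**
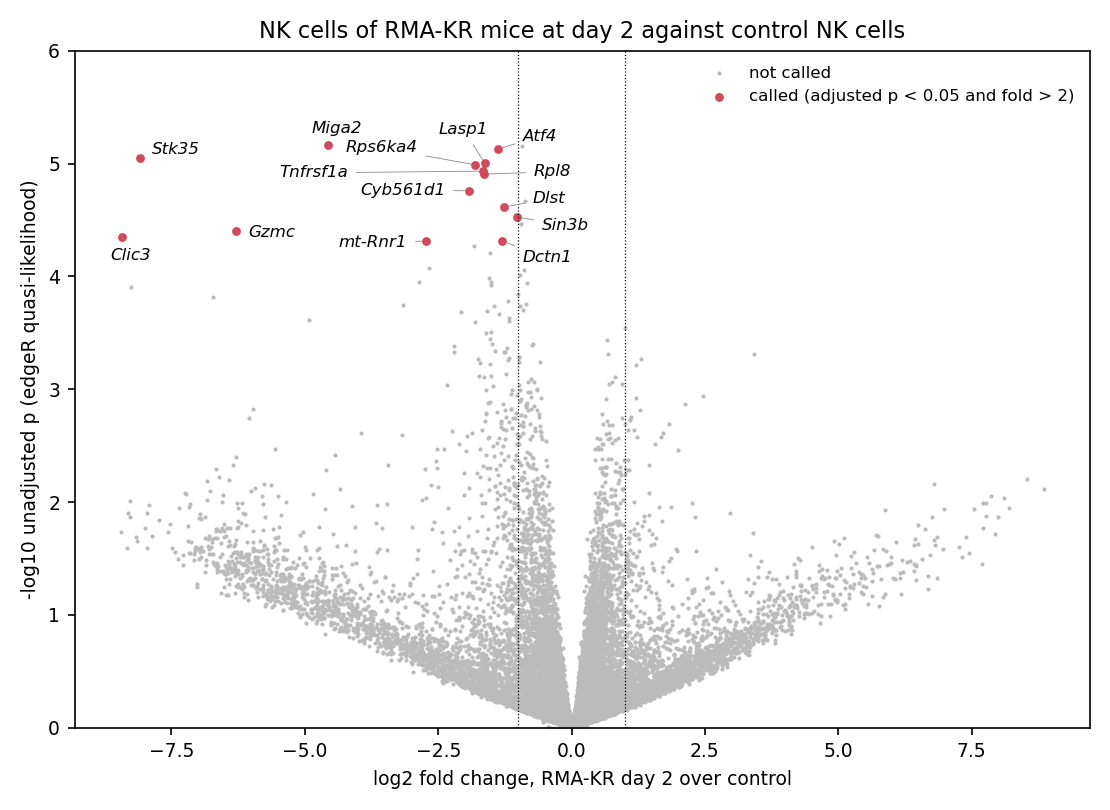
Each point is 1 of the 17097 tested genes, with the log2 fold change of RMA-KR day 2 over control on the horizontal axis and the negative log10 of the unadjusted edgeR p on the vertical axis; dotted lines mark a fold change of 2. The 14 called genes, in red, lie on the left.

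Among the receptors and kinases that fell, Tnfrsf1a encodes the main receptor for TNF (chr6:125349362-125362484 in mm10, the build of all gene positions given here). It was at 73.2, 75.6, 64.6 and 97.0 normalized CPM in control, 34.7, 22.3 and 16.8 in RMA-KR day 2 and 78.3, 69.1 and 75.5 in RMA day 2. Every RMA-KR day 2 library was below every library of both other groups. Tnfrsf1a fell by 1.66 on the log2 scale (SE 0.30, n = 3 and 4, edgeR adjusted p = 0.0265). Rps6ka4 encodes MSK2, a nuclear kinase downstream of MAP kinases (chr19:6829085-6840636), and was at 109, 131, 91.5 and 78.8 normalized CPM in control, 43.9, 16.8 and 27.4 in RMA-KR day 2 and 96.6, 112 and 103 in RMA day 2. The RMA-KR day 2 group did not overlap with control or with RMA day 2, and its library 1 was the nearest to them. Rps6ka4 fell by 1.81 (SE 0.32, adjusted p = 0.0265).

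Stk35 encodes a nuclear serine/threonine kinase (chr2:129800517-129832287) and was close to absent at day 2. It was at 13.7, 8.49, 11.7 and 9.29 normalized CPM in control and at 0, 0 and 0.0805 in RMA-KR day 2. The 3 RMA-KR day 2 libraries together held 1 count and the control libraries 377, a ratio of 375-fold with a counting interval from 66.9 to 14846 (edgeR adjusted p = 0.0265). Stk35 was at 8.14, 28.0 and 3.57 normalized CPM in RMA day 2 and between 1.44 and 26.04 in RMA-KR day 7, with a median of 13.2, so it was detected in every library of both.

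Gzmc, a granzyme gene in the cluster of related granzymes on chromosome 14 (chr14:56231441-56234656), was at 2.77, 1.74, 4.85 and 2.77 normalized CPM in control and at 0, 0.0766 and 0 in RMA-KR day 2. With 1 count against 110, the ratio was 109-fold (counting interval from 19.2 to 4359, edgeR adjusted p = 0.0483). Gzmc was at 4.27, 11.9 and 4.36 normalized CPM in RMA day 2. The major granzyme gene Gzma, by contrast, was at 7779, 10651, 12409.5 and 6066 normalized CPM in control and 8538, 9756 and 10128 in RMA-KR day 2 (log2 fold change 0.04, adjusted p = 0.997), with overlapping groups. Of 21 tested granule and cytotoxicity genes, 1 was called, Gzmc, against 14 of 17097 tested genes (0.0819%), and their median log2 fold change was 0.04, from 0.01 without control library 1 to 0.13 without control library 3 (0.00 over all tested genes). Clic3, of the chloride intracellular channel family (chr2:25456838-25458776), falls outside the naming rule because of its low level and was chosen after its values were seen: it was at 1.11, 4.44, 6.43 and 4.46 normalized CPM in control and at 0 in all 3 RMA-KR day 2 libraries. Against a floor of 3 counts over the group, Clic3 was at least 54.0-fold lower (adjusted p = 0.0488).

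Atf4 encodes the transcription factor of the integrated stress response, which drives amino acid transport and synthesis genes (chr15:80255184-80257541). It was at 266, 349.9, 375 and 206 normalized CPM in control, 122, 106 and 118 in RMA-KR day 2 and 245, 381 and 295 in RMA day 2. The 3 RMA-KR day 2 libraries were close together and below all others, control library 4 being the nearest. Atf4 fell by 1.38 (SE 0.24, adjusted p = 0.0265). Of 28 tested genes of the unfolded protein and amino acid response list, 18 had a lower mean (median log2 fold change -0.15), against 8474 of 17097 tested genes (median 0.00), and 1 was called, Atf4, against 0.0819% of all tested genes. Without control library 4 the list had 14 lower of 28 (median -0.04), without control library 2 its median was -0.09, without control library 1 it was -0.23, and without RMA-KR day 2 library 2 it was -0.29, so no tilt is read from it. Members with values on either side were Calr, a chaperone of the endoplasmic reticulum, at 258, 314, 321 and 351 normalized CPM in control and 191, 144 and 126 in RMA-KR day 2 (log2 fold change -1.02, adjusted p = 0.266), and the amino acid transporter gene Slc3a2, at 264, 287, 261 and 216 in control and 387, 427 and 387 in RMA-KR day 2 (0.64, adjusted p = 0.334). Neither was called by edgeR or DESeq2, and neither overlapped between the groups; both were chosen after their values were seen.

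Lasp1 encodes an actin-binding adaptor protein (chr11:97799000-97838764) and was at 654, 624, 576 and 681 normalized CPM in control, 255, 156 and 205 in RMA-KR day 2 and 667, 683 and 649 in RMA day 2. The RMA-KR day 2 libraries were below all of the others. Lasp1 fell by 1.63 (SE 0.29, adjusted p = 0.0265). Dctn1, which encodes the largest subunit of the dynein cofactor dynactin (chr6:83165920-83200117), was at 157, 174, 158 and 179 normalized CPM in control and 91.3, 42.8 and 68.5 in RMA-KR day 2, again without overlap, and fell by 1.31 (SE 0.26, adjusted p = 0.0488). Vim, the intermediate filament gene vimentin, chosen after its values were seen, was at 1308, 1272, 1041 and 930.0 normalized CPM in control and 641, 558 and 577 in RMA-KR day 2; its adjusted p was 0.0452 at a log2 fold change of -0.94, short of a fold of 2. Esyt1 and Dhx15 were in the same position, with log2 fold changes of -0.93 (adjusted p = 0.0265) and -0.88 (adjusted p = 0.0366).

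Miga2 encodes an outer membrane protein that promotes mitochondrial fusion (chr2:30364233-30385521), and was at 27.5, 20.4, 26.3 and 16.6 normalized CPM in control and 0.927, 0.0766 and 1.85 in RMA-KR day 2. RMA day 2 lay between, at 5.07, 3.09 and 14.4, without overlap with either group. Miga2 fell by 4.56 (SE 0.79, adjusted p = 0.0265). mt-Rnr1, the small ribosomal RNA of the mitochondrial genome, was at 65.4, 38.0, 47.9 and 13.8 normalized CPM in control and 8.25, 4.59 and 5.87 in RMA-KR day 2, and fell by 2.72 (SE 0.55, adjusted p = 0.0488). Control library 4 was the lowest of its group here as well. CT010467.1, an rRNA gene chosen after its values were seen, was at 2244, 1641, 1883 and 1005 normalized CPM in control and 652, 483 and 523 in RMA-KR day 2, with the groups apart (log2 fold change -1.61, edgeR adjusted p = 0.240; called by DESeq2 with 0.0320); ribosomal reads were removed by the authors before alignment, so counts of CT010467.1, mt-Rnr1 and mt-Rnr2 may be partly what that step left. Its part in the lower level of mt-Rnr1 was not tested. The large mitochondrial ribosomal RNA mt-Rnr2, chosen after its values were seen, was at 699.5, 622, 820.4 and 503 normalized CPM in control and 343, 347 and 323 in RMA-KR day 2 (log2 fold change -0.97, adjusted p = 0.0895). Dlst, outside the naming rule and also chosen after its values were seen, encodes a subunit of the oxoglutarate dehydrogenase complex of the citric acid cycle (chr12:85110833-85134845); it was at 249, 284, 278 and 254 normalized CPM in control and 137, 80.9 and 114 in RMA-KR day 2, and fell by 1.27 (SE 0.24, adjusted p = 0.0378).

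The remaining called genes were Cyb561d1, Sin3b and Rpl8. Cyb561d1, of the cytochrome b561 family of membrane proteins (chr3:108195687-108201212), was at 102, 89.3, 79.4 and 114 normalized CPM in control, 21.3, 28.4 and 26.2 in RMA-KR day 2 and 71.9, 56.0 and 69.4 in RMA day 2, and fell by 1.93 (SE 0.36, adjusted p = 0.0330). Sin3b encodes a scaffold of histone deacetylase complexes (chr8:72723285-72758201); it lies outside the naming rule and was chosen after its values were seen. Sin3b was at 201, 205, 150.4 and 199.8 normalized CPM in control, 78.3, 85.2 and 116 in RMA-KR day 2 and 66.6, 92.6 and 120.3 in RMA day 2, so the groups with either tumor overlapped with each other and not with control. It fell by 1.02 (SE 0.20, adjusted p = 0.0425).

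**Figure D2:**
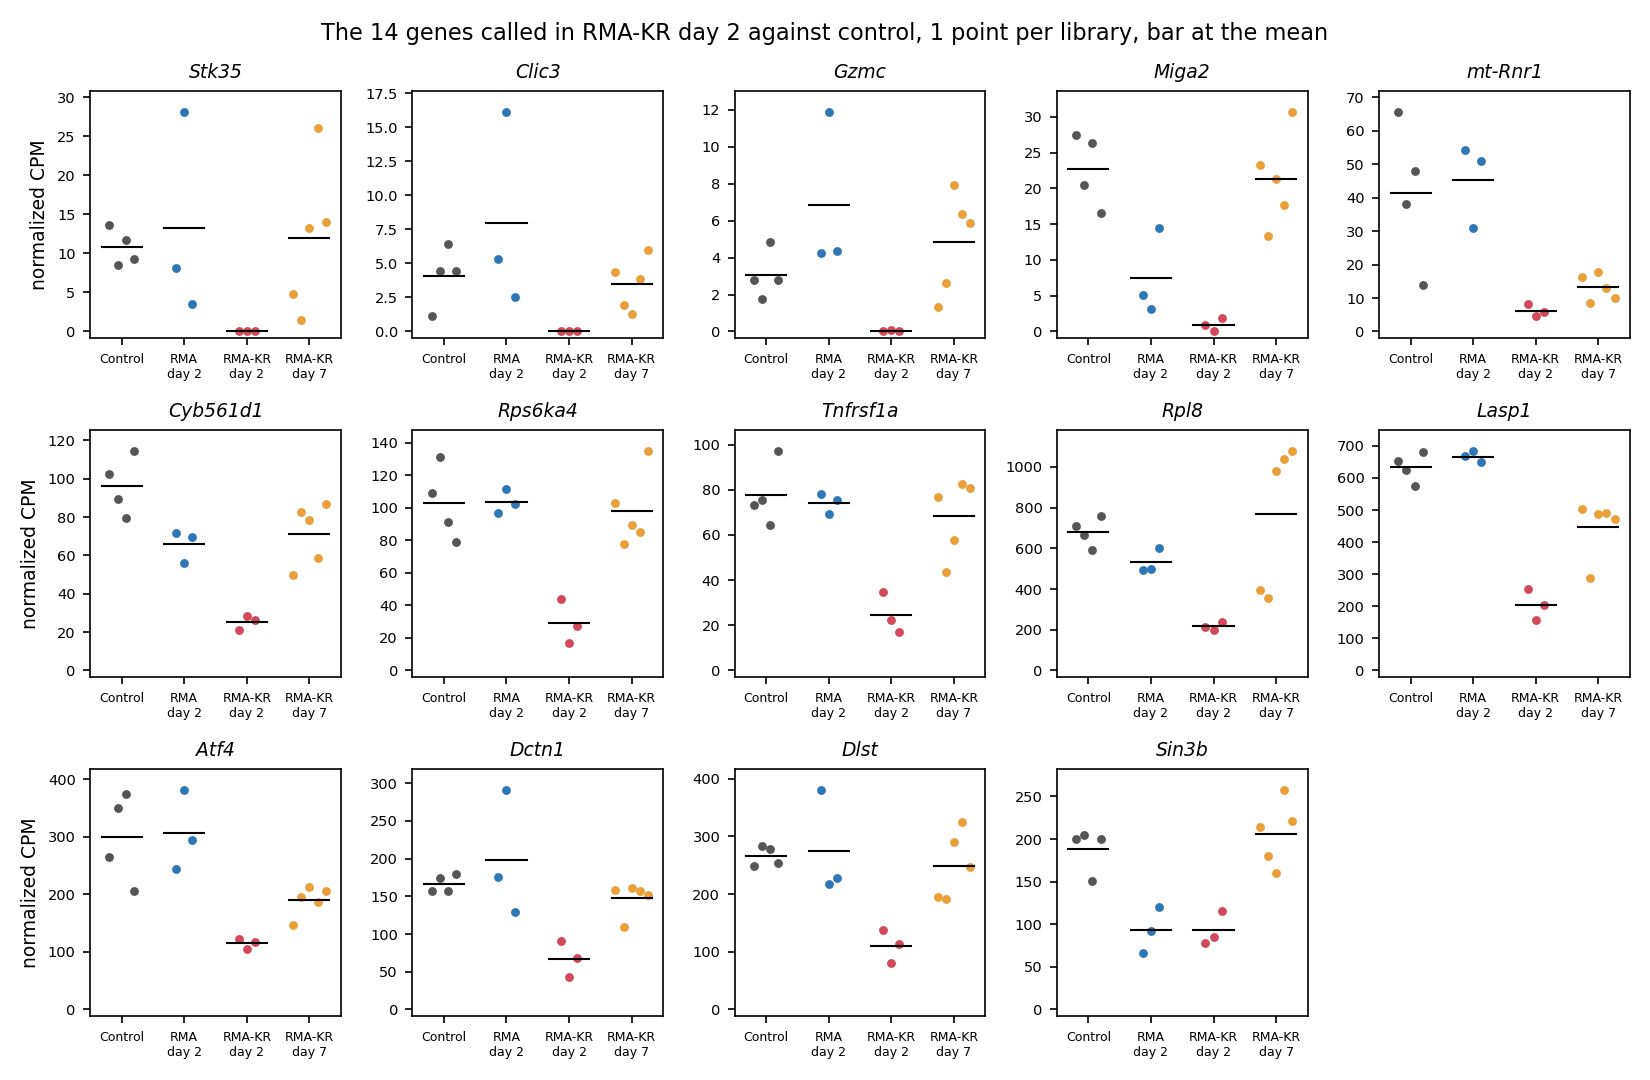
Normalized CPM of the 14 called genes, with 1 point per library and a bar at the mean of each group. In every panel the 3 RMA-KR day 2 points lie below all 4 control points, but the test chose these genes for low p-values; in the panel of Sin3b the RMA day 2 points are as low.

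The number of called genes depended on single libraries. Without control library 1, 2 or 3, edgeR called 0 genes (1237, 1240 and 1304 genes at an unadjusted p under 0.05, against 1490 with all libraries); without control library 4 it called 1 (Atf4), without RMA-KR day 2 library 2 it called 1 (Thap12, not among the 14), and without RMA-KR day 2 library 3 it called 9, of which 2 were among the 14. Without RMA-KR day 2 library 1 it called 11, of which 4 were among the 14. Since p-values chose the 14 genes and the naming rule takes genes whose groups do not overlap, their separation by library is no finding of its own; all RMA-KR day 2 libraries were below all control libraries in 1028 of 17097 tested genes. With only the libraries of these groups in the fit, edgeR called 7, of which 4 were among the 14. DESeq2 called 148 genes, 21 higher and 127 lower, and 13 of the 14 were among them. The log2 fold change of each of the 14 genes was negative in all 16 alternatives that gave it, and each gene lost its call in at least 8 of them.

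With Rpl8 the results reach the ribosome. Rpl8 encodes a protein of the large subunit (chr15:76904078-76906314) and was at 707, 665, 593 and 758 normalized CPM in control, 215, 200.4 and 239 in RMA-KR day 2 and 493, 499.8 and 600.0 in RMA day 2. The 3 RMA-KR day 2 libraries were below every other library. Rpl8 fell by 1.64 (SE 0.30, adjusted p = 0.0265). The list of 79 cytosolic ribosomal protein genes was drawn up after this value was seen, and it is described without a test. Its summed level was 8049, 8026, 7643 and 8316 normalized CPM in control and 4348, 5715 and 5652 in RMA-KR day 2, while RMA day 2 had 6243, 7043 and 7201. The order was control, RMA day 2 and RMA-KR day 2, with no overlap between the 3 groups. Other values also set RMA-KR day 2 apart from every control library. Undetected expressed genes numbered 86, 86 and 74 in RMA-KR day 2 libraries 1 to 3 and 13, 30, 22 and 11 in control. Macrophage and platelet marker sums, given above, were higher in RMA-KR day 2 too, though edgeR and DESeq2 called none of these markers. The part of these signs in the ribosomal protein values was not tested. Of the 79 genes, 33 were lower at an unadjusted p under 0.05 (41.8%, against 5.71% of all tested genes) and 0 were higher (3.00% of all tested genes); edgeR called 1, Rpl8 (14 of 17097 tested genes, 0.0819%), and DESeq2 called 13 (148 of 17097, 0.866%).

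Members of both ribosomal subunits had the pattern, and those named next were chosen after their values were seen. Rps3a1 was at 122, 127, 129.6 and 107 normalized CPM in control and 58.0, 66.1 and 62.2 in RMA-KR day 2 (log2 fold change -0.97, adjusted p = 0.0752). Rpl39 was at 49.7, 44.3, 38.2 and 35.98 in control and 7.33, 10.95 and 11.5 in RMA-KR day 2 (-2.08, adjusted p = 0.0930). Rps24 was at 113, 95.9, 90.4 and 109 in control and 35.8, 31.3 and 39.1 in RMA-KR day 2 (-1.53, adjusted p = 0.131). In all 3 the groups were apart. EdgeR called none of the 3, and DESeq2 called Rpl39 (adjusted p = 0.00197) and Rps24 (0.0101) but not Rps3a1, whose adjusted p was 0.00231 at a log2 fold change of -0.93. Rack1, which encodes a scaffold protein bound to the small subunit, was at 995, 839, 706 and 925 normalized CPM in control and 310.2, 284 and 321 in RMA-KR day 2 (-1.50, edgeR adjusted p = 0.0752), and DESeq2 called it (adjusted p = 0.00210). The median of the 79 genes lay between -0.73 and -0.60 when any 1 of the 7 libraries was left out. Ribosome biogenesis genes, whose products build ribosomes, had a median of -0.23 with 23 of 32 lower.

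Promoters of ribosomal protein genes are known to hold binding sequences of ETS family factors such as GABP. Those printed here belong to members with the lower level. They were taken in the order of the unadjusted edgeR p among members whose promoter holds CCGGAAG on either strand. That the printed promoters hold these letters is therefore no finding. RefSeq promoters (GRCm38.p6, from 250 bases before to 50 bases after the start) matched 58 of the 79 genes, with 68 promoters. The letters CCGGAAG on either strand were in 25 of the 68 (36.8%) and in 8.86% of all 32851 promoters, and CTCTTTCC, a pyrimidine run of the kind found at the start of these transcripts, in 13 (19.1%) and 3.12%. The promoters of Rps3a1 (chr3:86142619-86142918, minus strand) and Rpl39 (chrX:37085173-37085472, minus strand) have CCGGAAG or its reverse complement CTTCCGG in capitals; each holds it once, and CTCTTTCC has 0 matches in both.
Rps3a1: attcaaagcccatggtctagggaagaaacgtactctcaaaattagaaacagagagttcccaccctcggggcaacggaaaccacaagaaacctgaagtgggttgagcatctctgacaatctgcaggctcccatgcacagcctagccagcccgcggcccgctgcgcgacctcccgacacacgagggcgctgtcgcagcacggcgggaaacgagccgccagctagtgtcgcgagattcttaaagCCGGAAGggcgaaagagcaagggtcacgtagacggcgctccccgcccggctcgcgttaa
Rpl39: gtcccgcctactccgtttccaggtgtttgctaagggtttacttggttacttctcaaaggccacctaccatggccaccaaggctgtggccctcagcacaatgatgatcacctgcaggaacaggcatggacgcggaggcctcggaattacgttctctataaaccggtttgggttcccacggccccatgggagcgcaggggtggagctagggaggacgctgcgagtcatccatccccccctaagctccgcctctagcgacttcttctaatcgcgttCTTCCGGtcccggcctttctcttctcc
The matches describe letters in these windows and nothing about a factor.

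Genes of the G2 and M phases, which run mitosis, had the opposite direction. Their summed level was 1104, 481, 667 and 360.2 normalized CPM in control and 591, 1366 and 1407 in RMA-KR day 2. RMA-KR day 2 libraries 2 and 3 were above all control libraries, and library 1 was within their range. In RMA day 2 the sums were 346, 1385 and 1515, with library 1 below and libraries 2 and 3 above all control libraries. The T cell markers, which the lymphoma could also carry, had sums above control in the same RMA-KR day 2 libraries 2 and 3. These sums were 439, 684 and 684 normalized CPM in libraries 1 to 3, against 410.5 to 491 in control. In RMA day 2 libraries 1 to 3 the T cell marker sums were 409, 501 and 400 normalized CPM. There, library 1 was below and library 2 above control in both sums. RMA day 2 library 3 was above control in the G2 and M phase sum and below it in the T cell marker sum. The sort excluded cells stained for T cell receptors, and the part of these markers in the G2 and M phase values was not tested. Of the 40 genes, 9 were higher at an unadjusted p under 0.05 (22.5%, against 3.00% of all tested genes) and 1 was lower; edgeR called 0 and DESeq2 called 1, with 11 higher at that unadjusted level. The 9 became 14, 5, 8 and 3 without control libraries 1 to 4, and 17, 4 and 6 without RMA-KR day 2 libraries 1 to 3, and the median stayed between 0.45 and 1.23.

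Pbk, a mitotic kinase gene, was at 0.739, 0, 1.79 and 0.0893 normalized CPM in control and 5.01, 8.19 and 7.48 in RMA-KR day 2 (log2 fold change 3.42, edgeR adjusted p = 0.142). Sgo2a, outside the list but among the genes taken by the naming rule, encodes a guardian of centromeric cohesion and was at 2.03, 0.289, 1.37 and 2.23 in control and 7.51, 8.65 and 8.45 in RMA-KR day 2 (2.47, adjusted p = 0.208). The naming rule took these genes for groups that do not overlap, so that separation is no finding. DESeq2 called both, Pbk with an adjusted p of 0.00215, which is the DESeq2 call among the 40 genes, and Sgo2a with 0.00268. Kif11, the spindle motor gene, chosen after its values were seen, was at 35.7, 18.4, 21.1 and 5.62 normalized CPM in control and 48.5, 52.2 and 38.5 in RMA-KR day 2 (1.21, adjusted p = 0.516). Birc5, which encodes survivin and was chosen likewise, was at 24.6, 5.69, 8.43 and 5.18 normalized CPM in control and 9.00, 51.5 and 40.6 in RMA-KR day 2 (1.65, adjusted p = 0.436), so that library 1 overlapped with control. The proliferation marker Mki67 overlapped as well, at 60.8, 13.7, 51.4 and 7.05 in control and 34.3, 52.8 and 88.0 in RMA-KR day 2 (0.82, adjusted p = 0.881). The 38 S phase genes, which copy DNA, had a median of 0.04 with 21 higher and 17 lower (-0.06 without RMA-KR day 2 library 3, where 17 were higher), and summed to 2088, 2129, 2201 and 1880.1 normalized CPM in control and 2296, 2077 and 2067 in RMA-KR day 2.

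Many promoters of G2 and M phase genes are known to carry a CHR element (TTTGAA) bound by the DREAM complex and a CCAAT box bound by NF-Y. Promoters are printed for Plk1 and Kif11, whose fitted mean was higher in RMA-KR day 2, and neither gene was called. They were taken in the order of the unadjusted edgeR p among higher members whose promoter holds TTTGAA on either strand. That the printed promoters hold TTTGAA is therefore no finding. RefSeq promoters (GRCm38.p6) matched 33 of the 40 genes, with 34 promoters. On either strand, TTTGAA was in 25 of them (73.5%) and in 17.9% of all 32851 promoters, and CCAAT in 26 (76.5%) and 37.4%. The promoters of Plk1 (chr7:122159185-122159484, plus strand) and Kif11 (chr19:37376132-37376431, plus strand) each hold both motifs once, in capitals, as written or as the reverse complements TTCAAA and ATTGG.
Plk1: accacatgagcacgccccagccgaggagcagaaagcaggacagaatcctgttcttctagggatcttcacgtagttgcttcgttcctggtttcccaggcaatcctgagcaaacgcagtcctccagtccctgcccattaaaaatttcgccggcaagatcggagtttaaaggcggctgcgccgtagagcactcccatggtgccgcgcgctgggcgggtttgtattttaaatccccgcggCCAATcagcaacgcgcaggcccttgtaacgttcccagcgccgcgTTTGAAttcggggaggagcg
Kif11: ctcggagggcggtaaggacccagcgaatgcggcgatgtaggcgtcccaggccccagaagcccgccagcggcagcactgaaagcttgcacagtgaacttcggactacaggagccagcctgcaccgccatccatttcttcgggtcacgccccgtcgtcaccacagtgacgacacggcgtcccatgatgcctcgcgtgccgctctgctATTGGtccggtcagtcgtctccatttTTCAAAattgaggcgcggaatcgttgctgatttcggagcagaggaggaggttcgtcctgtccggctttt
Plk1, a mitotic kinase gene chosen after its values were seen, was at 13.7, 1.83, 4.42 and 3.21 normalized CPM in control and 18.5, 5.28 and 22.4 in RMA-KR day 2 (log2 fold change 1.45, adjusted p = 0.498), so that RMA-KR day 2 library 2 lay within the control range.

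**Figure D3:**
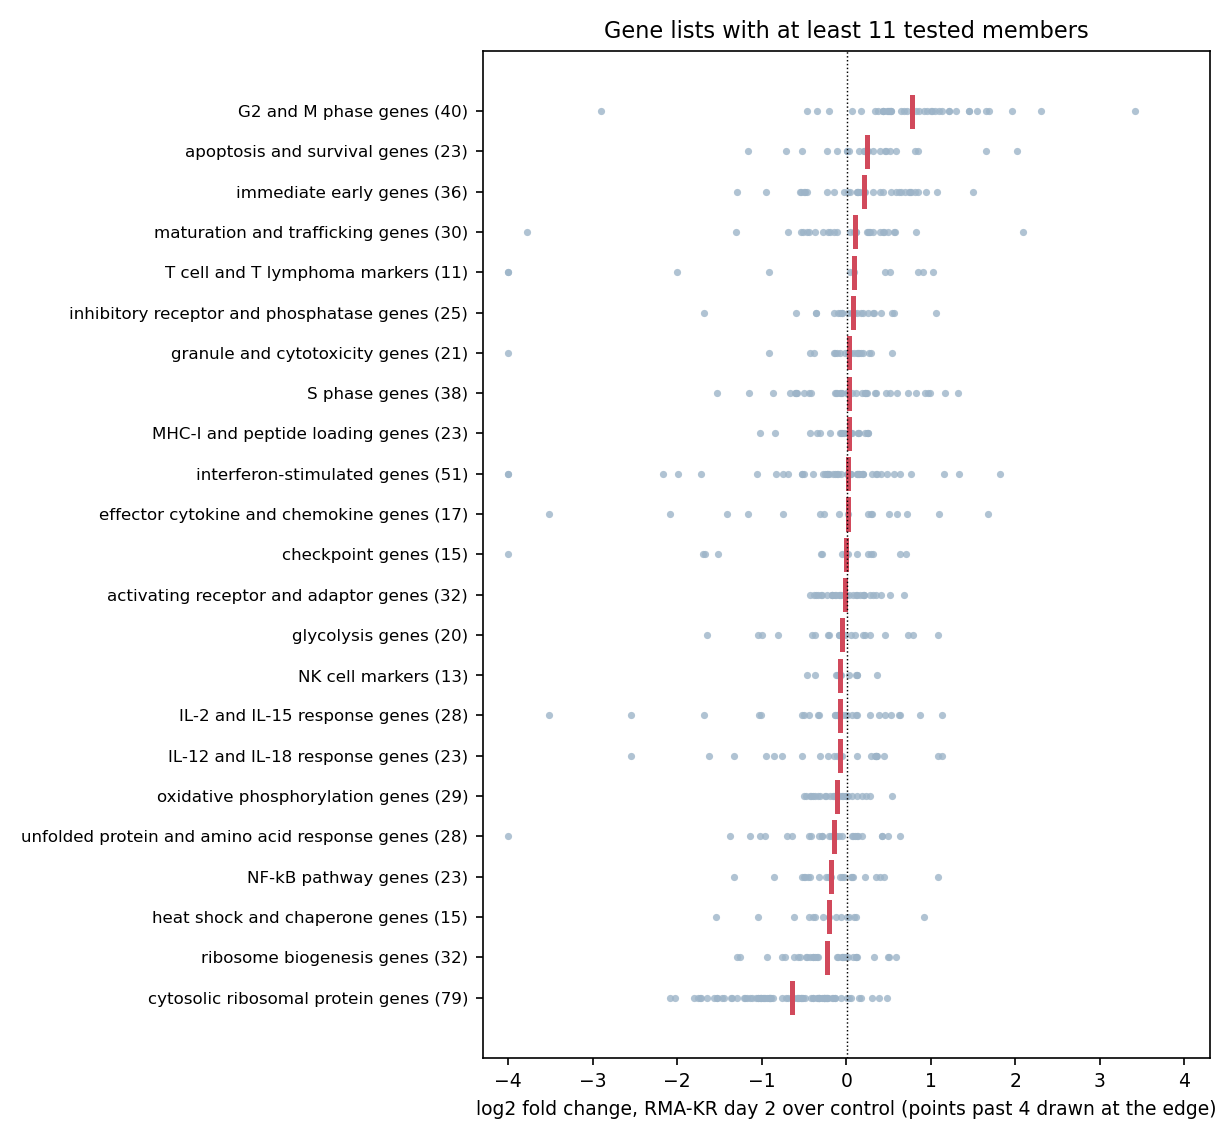
Each point is the log2 fold change of 1 gene in RMA-KR day 2 over control, grouped by list with the number of tested members in brackets, and the red bar is the median of the list. Ribosomal protein genes have the lowest median (-0.65) and G2 and M phase genes the highest (0.77) of the lists drawn. The ribosomal protein list was drawn up after the value of its member Rpl8 was seen.

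**Figure D4:**
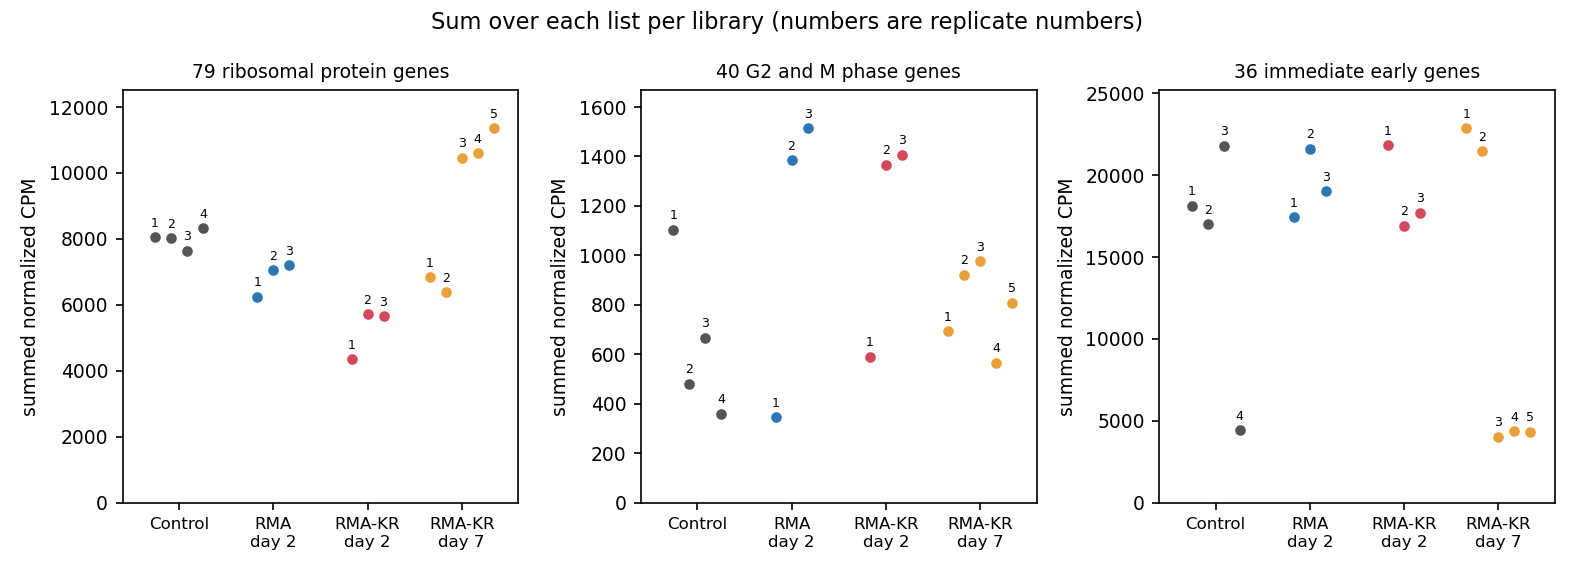
Summed normalized CPM of ribosomal protein genes, G2 and M phase genes and immediate early genes, with 1 point per library and replicate numbers beside the points. Ribosomal protein sums of RMA-KR day 2 lie between 4348 and 5715, below all control libraries, and 4 libraries are low in immediate early genes.

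No gene passed in the upward direction with edgeR, where 513 genes (3.00%) were higher at an unadjusted p under 0.05 and 977 (5.71%) lower; without a filter on low counts edgeR called 19 higher, without RMA-KR day 2 library 1 it called 1 higher, and DESeq2 called 21 higher. The smallest edgeR adjusted p among the higher genes, 0.112, belonged to Golt1b, a Golgi transport gene, with 39.0, 51.3, 74.0 and 52.9 normalized CPM in control and 122, 107 and 99.0 in RMA-KR day 2 (log2 fold change 1.01). Klf7, a transcription factor gene, was at 29.2, 22.6, 20.8 and 13.0 in control and 51.7, 51.7 and 53.6 in RMA-KR day 2 (1.29, adjusted p = 0.143). Map3k1, a MAP kinase kinase kinase gene, was at 166, 159, 195 and 141 in control and 294, 343 and 324 in RMA-KR day 2 (0.95, adjusted p = 0.189). The naming rule took only genes whose groups do not overlap. DESeq2 called Golt1b (adjusted p = 0.00318) and Klf7 (0.00394); Map3k1 had 0.0196 at a log2 fold change of 0.99. The chromatin gene Arid1a, the splicing-related gene Arglu1, and Pex19 and Commd4 were taken by the same rule, with log2 fold changes between 0.67 and 1.20 and edgeR adjusted p-values between 0.131 and 0.189; of these, DESeq2 called Arglu1 (adjusted p = 0.0113).

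The genes for NK cell functions named next, which the study measured, were not called. Ifng was at 253, 291, 373 and 59.3 normalized CPM in control and 327, 320.5 and 251 in RMA-KR day 2 (log2 fold change 0.29, adjusted p = 0.964). The activation marker gene Cd69 was at 502, 189.5, 417 and 60.4 in control and 387, 289 and 336 in RMA-KR day 2 (0.21, adjusted p = 0.979). In both, control library 4 was the lowest and the other control libraries overlapped with the RMA-KR day 2 group. Ccl3 had the same picture, at 1124, 1422, 1900.3 and 164 in control and 1349, 911 and 1006 in RMA-KR day 2 (-0.08, adjusted p = 0.997). Ccl5 was at 3866, 3892, 3610.3 and 2681 in control and 3300.3, 4763 and 4999 in RMA-KR day 2 (0.31, adjusted p = 0.776). Its log2 fold change was 0.51 without RMA-KR day 2 library 1 and 0.20 without RMA-KR day 2 library 3. Without control library 4 the log2 fold changes were -0.01 for Ifng, -0.12 for Cd69 and -0.43 for Ccl3, Cd69 was at 0.63 without control library 1, Ifng at 0.59 without control library 3 and Ccl3 at 0.28 without control library 3, so no direction is given for Ifng, Cd69 and Ccl3. The p-values do not show that the levels were equal. For the 36 immediate early genes as a list, 26 had a higher mean (median 0.21); without control library 4, 15 of 36 did, and the median was -0.10, so the direction was reversed without that library.

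Tox, Lag3, Tigit and Eomes, also measured in the study, were not called by edgeR or by DESeq2. Tox, a transcription factor linked to exhaustion in T cells, was at 74.9, 65.3, 62.4 and 76.2 normalized CPM in control and 84.8, 138 and 119.6 in RMA-KR day 2, without overlap (log2 fold change 0.71, edgeR adjusted p = 0.254; 0.75 and 0.0437 with DESeq2, short of a fold of 2). Lag3 was at 11.5, 10.8, 19.6 and 22.1 in control and 7.79, 0.613 and 8.37 in RMA-KR day 2, lower in each RMA-KR library than in all control libraries (-1.52, adjusted p = 0.663). Without RMA-KR day 2 library 2, the log2 fold change of Lag3 was -0.98. Tigit overlapped, at 81.7, 66.7, 128 and 61.2 in control and 110.3, 122 and 69.5 in RMA-KR day 2 (0.25, adjusted p = 0.9498). Pdcd1, which encodes PD-1, had 3 counts in control and 20 in RMA-KR day 2 and was not tested. Havcr2, a checkpoint receptor gene, was at 0, 0.0965, 0 and 0 normalized CPM in control and at 0 in RMA-KR day 2 (edgeR adjusted p = 0.956). Both groups were under the floor, so no fold is given, although DESeq2 called Havcr2 lower (adjusted p = 1.51e-05). Eomes, the transcription factor of mature NK cells, was at 388, 263, 255 and 319 in control and 251, 241 and 216 in RMA-KR day 2 (-0.38, adjusted p = 0.592). The log2 fold change of Eomes was -0.21 without control library 1.

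The 51 tested interferon-stimulated genes had a median of 0.02, with 27 higher and 24 lower; at an unadjusted p under 0.05, 0 were higher (3.00% of all tested genes) and 6 lower (11.8%, against 5.71% of all tested genes) with edgeR, and 1 and 7 with DESeq2. The median was -0.03 without control library 1 or 2. The 6 became 3, 2 and 2 without control libraries 2, 3 and 4, and 1 without RMA-KR day 2 library 2. Rsad2 was at 0.739, 7.72, 0.948 and 3.30 normalized CPM in control and 0.185, 0.230 and 1.69 in RMA-KR day 2 (log2 fold change -2.17, adjusted p = 0.594), and Isg15 at 2.03, 5.88, 5.16 and 8.12 in control and 4.08, 1.91 and 2.98 in RMA-KR day 2 (-0.83, adjusted p = 0.838). Both antiviral genes overlapped between the groups. Irf1, the interferon-induced transcription factor gene, chosen after its values were seen, was at 482, 496, 724 and 517 in control and 432, 368 and 361 in RMA-KR day 2, below every control library (-0.52, adjusted p = 0.438).

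The medians of the other lists of NK cell functions and cell processes follow, beside 0.00 over all tested genes, each with its lowest and highest value when 1 of the 7 libraries was left out. For 9 lists that range includes values on both sides of 0, so no direction is given. They are activating receptor and adaptor genes (-0.01, -0.06 without RMA-KR day 2 library 3, 0.08 without control library 4), inhibitory receptor and phosphatase genes (0.08, -0.01 without RMA-KR day 2 library 2, 0.27 without RMA-KR day 2 library 1), checkpoint genes (0, -0.04 without control library 1, 0.11 without RMA-KR day 2 library 1), effector cytokine and chemokine genes (0.01, -0.05 without RMA-KR day 2 library 1, 0.34 without control library 3), IL-2 and IL-15 response genes (-0.07, -0.13 without control library 1, 0.05 without control library 2), IL-12 and IL-18 response genes (-0.07, -0.09 without control library 4, 0.05 without RMA-KR day 2 library 1), glycolysis genes (-0.05, -0.09 without RMA-KR day 2 library 1, 0.08 without control library 2), oxidative phosphorylation genes (-0.11, -0.20 without RMA-KR day 2 library 2, 0.01 without control library 2) and MHC-I and peptide loading genes (0.04, -0.08 without control library 1, 0.11 without control library 3). Heat shock and chaperone genes had -0.21, from -0.34 without RMA-KR day 2 library 1 to -0.06 without control library 3, and NF-kB pathway genes had -0.19, from -0.19 to -0.10. Apoptosis and survival genes had 0.24 with 18 of 23 higher, from 0.17 to 0.33, and maturation and trafficking genes had 0.10, from 0.04 without control library 4 to 0.16. Mitochondrially encoded genes had -0.29 with 2 of 8 higher, from -0.35 to -0.16 without control library 1. Nuclear retained RNA genes had 0.61 with 5 of 8 higher, from 0.06 without RMA-KR day 2 library 1 to 0.82 without control library 1. The most abundant gene of that list, Gm26917, is annotated as a lincRNA. It was at 6087, 2937, 3063 and 3615 normalized CPM in control and 2076, 1882 and 1834 in RMA-KR day 2, without overlap (log2 fold change -1.02, edgeR adjusted p = 0.518).

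Within these lists, Hspe1, a mitochondrial chaperonin gene, was at 17.0, 16.6, 17.4 and 11.3 normalized CPM in control and 4.64, 4.52 and 6.84 in RMA-KR day 2 (log2 fold change -1.54, adjusted p = 0.254). Nfkb1 was at 193, 101, 113 and 149 in control and 327, 363 and 196 in RMA-KR day 2 (1.09, adjusted p = 0.240). These p-values are from edgeR; DESeq2 called Hspe1 (0.0218) and Nfkb1 (0.0401). Hspe1 and Nfkb1 did not overlap between the groups, and these genes were chosen after their values were seen.

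To see where NK cells facing RMA-KR differed from those facing RMA at the same day, the groups were compared directly; this comparison shares the 3 RMA-KR day 2 libraries with the one against control. EdgeR called 52 of 17097 genes (0.304%), 22 higher and 30 lower in RMA-KR, while DESeq2 called 297. With only the libraries of these groups in the fit, edgeR called 0, with 818 at an unadjusted p under 0.05, so the calls named next rest on the fit of all libraries. The genes named next were chosen for low levels in the 3 RMA-KR day 2 libraries, so a lower level here is no independent result. Dctn1 was lower than in RMA day 2 by a log2 fold change of -1.55 (adjusted p = 0.0187), Lasp1 by -1.70 (0.0187), Rps6ka4 by -1.82 (0.0199), Tnfrsf1a by -1.60 (0.0258), Dlst by -1.31 (0.0244), Atf4 by -1.41 (0.0187) and mt-Rnr1 by -2.86 (0.0294). Stk35, Gzmc and Clic3, with at most 1 count in RMA-KR day 2, were called as well, with adjusted p-values of 0.0187, 0.0187 and 0.0201. Miga2 (-2.97, adjusted p = 0.1002), Cyb561d1 (-1.38, 0.121), Rpl8 (-1.28, 0.0775) and Sin3b (-0.00, 1.00) did not pass. The ribosomal protein list had a median of -0.57 here and the G2 and M phase list -0.10. Without RMA day 2 libraries 1, 2 and 3, the 52 genes became 20, 12 and 192 (in the last case 145 higher and 47 lower, the opposite balance), and without RMA-KR day 2 libraries 2 and 3 they became 8 and 30; the fit without the 3 libraries with the most undetected genes leaves 1 RMA day 2 library, which is assumed to vary like the other groups, and called 1 gene (Ndufaf7), with 1458 at an unadjusted p under 0.05.

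At day 7 of RMA-KR, compared with day 2 of the same tumor and again sharing the 3 RMA-KR day 2 libraries, edgeR called 79 of 17097 genes (0.462%), 61 higher and 18 lower at day 7. With only the libraries of these groups in the fit, edgeR called 0, with 1728 at an unadjusted p under 0.05, so these calls too rest on the fit of all libraries. The genes named next were chosen for low RMA-KR day 2 levels, so a higher level at day 7 is no independent result. Rpl8 was higher by a log2 fold change of 1.82 (adjusted p = 0.0113), Miga2 by 4.47 (0.0113), Sin3b by 1.15 (0.0113), Rps6ka4 by 1.74 (0.0158), Tnfrsf1a by 1.47 (0.0186), Dlst by 1.17 (0.0198), Dctn1 by 1.13 (0.0382) and Cyb561d1 by 1.49 (0.0404). Stk35, Gzmc and Clic3 were called as well (adjusted p-values 0.0113, 0.0158 and 0.0227), while Lasp1 (1.12, adjusted p = 0.0595), Atf4 (0.72, 0.139) and mt-Rnr1 (1.08, 0.337) were not. Rpl8 was at 396, 358, 981, 1038 and 1076 normalized CPM in day 7 libraries 1 to 5, and the 79 ribosomal protein genes summed to 6840.2, 6378, 10464, 10599 and 11364. Libraries 3 to 5, those low in immediate early transcripts, were above control in this sum, and libraries 1 and 2 were between day 2 and control. Without the 4 libraries low in immediate early transcripts, edgeR called 0 genes at day 7 against day 2, with 1365 at an unadjusted p under 0.05; with all libraries, DESeq2 called 458. Without day 7 libraries 1 to 5 in turn, 124, 221, 11, 24 and 33 genes were called, and without RMA-KR day 2 libraries 1 and 2, 23 and 8.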

How the data were processed

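RNA-seq of polyA RNA (Lexogen mRNA-seq kit V2, single-end Illumina reads) was measured in 24 libraries of mouse splenic NK cells, and the values used are read counts per gene as deposited by the authors. Per the labels, the authors trimmed with cutadapt 1.10, removed ribosomal reads with Bowtie2 2.2.8, aligned to mm10 with STAR 2.5.3a and counted with HTSeq 0.6.1p1. Of 112 columns in the table, the 24 columns of counts were used; 48 other columns per library and the authors' comparison columns were not used. Totals ran from 5138651 to 14863500 counts per library, with a median of 10489204, and the floor of 3 counts was at most 0.554 normalized CPM in the 7 libraries compared.

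All 24 libraries, in 7 groups taken from the labels, were fitted together in edgeR 4.0.16 (R 4.3.3, limma 3.58.1) with filterByExpr, TMM factors and the robust quasi-likelihood test with 17 residual degrees of freedom, and p-values were adjusted after Benjamini and Hochberg over 17097 tested of 45237 genes. A gene was called when its adjusted p was below 0.05 and it differed more than 2-fold. Named genes were the called genes with groups that do not overlap and a mean of at least 5 normalized CPM in RMA-KR day 2 or control, up to 10 per direction. Where fewer were called, the genes with the smallest p filled up that number. Also named were the called members of 33 gene lists, the most abundant member of each list, and genes that the study measured by other methods. Other named genes are said to be chosen after their values were seen. Some genes and markers that the rule or the lists take are not reported here. The members and lists were chosen with earlier results of these data known. Alternatives were DESeq2 size factors in edgeR, DESeq2 1.42.0 with default settings and with a beta prior, no filter, a mean of at least 10 counts, a fit of the compared groups only with and without the replicate number as a block, and leaving out each library; fits without the 4 libraries low in immediate early transcripts and without the 3 libraries with the most undetected genes were added after the data were seen. The pipeline was tested on simulated data.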

Additional observations from a re-analysis of the deposited data

Results flagged for a closer look

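In groups of 4 or 5 libraries, 124 sets of values were examined for a library far from the others, and 9 had one (7.26%), where chance gives about 1 in 20. Among called genes, Lasp1 was at 287 and Dctn1 at 109.8 normalized CPM in RMA-KR day 7 library 2, below the other 4 libraries of that group, and Sin3b was at 150.4 in control library 3, below the other 3. Control library 3 was also low for Lamp1, at 172 normalized CPM, and was the control library with the highest Ngp, at 0.527. Control library 4 was apart with Cd74 at 19.6 normalized CPM and with the sum of B cell markers at 42.9. Control library 1 had Top2a at 103 normalized CPM, above the other control libraries, and control library 2 had Havcr2 at 0.0965, with the others at 0. That Havcr2 value is under the floor of 0.289 normalized CPM in control library 2. It is counted among the 9 but shows no difference between libraries.

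Named genes that differed between the tumors were found by the direct test of RMA-KR day 2 minus RMA day 2 on the log2 scale, which shares the 3 RMA-KR day 2 libraries with the comparison against control. The difference was -1.82 for Rps6ka4, -1.70 for Lasp1, -1.60 for Tnfrsf1a, -1.55 for Dctn1, -1.41 for Atf4, -1.31 for Dlst and -2.86 for mt-Rnr1. For Clic3, Stk35 and Gzmc, with at most 1 count in the RMA-KR libraries, the fitted differences of -9.37, -8.39 and -7.46 are no measure of size. These genes were chosen for low RMA-KR day 2 levels against control, so the differences are no independent result. The causes of these differences were not tested.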

How the results depend on the processing

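In RMA-KR day 2 against control, the 14 called genes became 7 with DESeq2 size factors in edgeR, 148 with DESeq2 (21 higher, 127 lower), 91 with its beta prior (15 higher, 76 lower), 110 with no filter (19 higher, 91 lower), 7 with the compared groups only (4 of the 14 among them), 1 with the replicate number as a block (CT010467.1, an rRNA gene, so none of the 14), 2 without the 4 libraries low in immediate early transcripts (Rpl8 and Rack1; added after the data were seen), and 0 to 11 when 1 library was left out. Against RMA day 2, the 52 became 297, 181 and 188 with DESeq2, its beta prior and no filter, 0 with the compared groups only (818 genes at an unadjusted p under 0.05 in edgeR), 0 with the block (693), 1 without the 3 libraries with the most undetected genes (added; this leaves 1 RMA day 2 library, assumed to vary like the other groups), and 8 to 192 when 1 library was left out. For day 7 against day 2, the 79 became 458, 308 and 369 with DESeq2, its beta prior and no filter, 0 with the compared groups only (1728) and with the block (901), 0 and 127 in the added fits, and 8 to 221 when 1 library was left out. The causes were not tested. A minimum mean of 10 counts (12, 66 and 108) and, for the latter comparisons, DESeq2 size factors (54 and 77) stayed within 1.5 times. The sign of each called gene stayed the same in all 16 alternatives; each of the 14 kept its call in 3 to 8 of them. Of 56 named genes that were not called, 7 were called in at least 1 alternative and 17 changed sign in at least 1; of 540 list medians, 12 moved by over 1 SD of the members. Pairing by replicate number was checked between RMA-KR day 2 and control only. The 3 pairs of libraries with the same number had correlations from 0.017 to 0.069, so 0 were over 0.1. Of the RMA-KR day 2 libraries, 2 had their highest correlation with the control library of the same number. So few libraries cannot decide whether replicate numbers pair libraries. Depth limits Clic3, Stk35 and Gzmc, for which day 2 levels are at or near 0 counts.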

Other observations

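Among tested genes by class, 446 of 13405 protein-coding genes were higher and 803 lower in RMA-KR day 2 than in control at an unadjusted p under 0.05 (median log2 fold change -0.00), and of 669 lincRNAs 15 were higher and 24 lower (median 0.09). In the fifth of genes with the highest levels, with means from 65.5 to 20977 normalized CPM, 228 of 3420 were higher and 333 lower (median 0.02).

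Further genes with RMA-KR day 2 libraries below all control libraries, chosen after their values were seen, were Actb and Il4ra. Actb, the main cytoplasmic actin gene, was at 26003, 24408, 20542 and 19958 normalized CPM in control and 13589.9, 11555 and 12364 in RMA-KR day 2 (log2 fold change -0.86, edgeR adjusted p = 0.0895). Il4ra, the IL-4 receptor alpha chain gene, was at 116, 87.7, 117 and 218 in control and 66.9, 33.3 and 38.6 in RMA-KR day 2 (-1.54, edgeR adjusted p = 0.0752). The tetraspanin gene Tspan31 was at 4.81, 1.83, 1.05 and 7.05 normalized CPM in control and at 0 in all 3 RMA-KR day 2 libraries (edgeR adjusted p = 0.0753). DESeq2 called Il4ra (adjusted p = 0.00222) and Tspan31 (0.000170) and not Actb or Per1. Per1, a clock gene chosen likewise, was higher in each RMA-KR day 2 library, with 46.0, 26.04, 47.9 and 18.4 in control and 96.3, 105 and 92.7 in RMA-KR day 2 (1.51, edgeR adjusted p = 0.515).

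The dendritic cell marker list, which holds genes that NK cells also express such as Itgax, summed to 668, 390.3, 455 and 611 normalized CPM in control and 479, 606 and 498 in RMA-KR day 2, and the ILC1 and ILC2 list, mostly Gata3, to 199, 256, 198 and 359 in control and 288, 387 and 293 in RMA-KR day 2. The list of MHC-I, Rae1 and tumor modification genes, mostly B2m, summed to 3176, 5397, 6436 and 4239 in control and 3741, 4697 and 5271 in RMA-KR day 2. The groups overlapped in all 3 sums, and the part of such cells in the results was not tested.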
